A study of Mus musculus with 4 samples.

Results

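The 14-3-3 genes are described here in NIH3T3 cells transfected with an siRNA against Timp1 (siTIMP1, 2 arrays) or with a control siRNA (siControl, 2 arrays). The members were taken as every non-control array probe whose gene name in the scanner files was Ywhab, Ywhae, Ywhag, Ywhah, Ywhaq, Ywhaz or Sfn, which gave 13 probes of 7 genes among 56605 probes. The family was chosen by the signal of Ywhaq, which was lower with siTIMP1 on these same arrays. The members' values in that contrast are therefore a description and not a test.

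NIH3T3 is an established mouse fibroblast line, derived from embryos, while the labels call the source mouse dermal fibroblasts. Both groups received their siRNA on apatite particles, which the labels abbreviate sCA, and both were kept in medium with 2% foetal calf serum. The labels give no untransfected cells, no time after transfection and no siRNA sequence. They do not say whether the arrays of a group came from separate cultures, so the spread between arrays may be technical. Replicate numbers follow the order of the samples and pair nothing.

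The 14-3-3 proteins are small, acidic adaptor proteins that work as dimers. They bind phosphorylated serine and threonine motifs on other proteins and thereby hold a client in the cytoplasm, mask a site on it or stabilise it. Mammals have the isoforms beta (Ywhab), epsilon (Ywhae), gamma (Ywhag), eta (Ywhah), theta, also called tau (Ywhaq), zeta (Ywhaz) and sigma (Sfn). Most are made in nearly all cells, whereas sigma is known from epithelia and as a p53 target.

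The isoforms resemble each other in their coding sequence, so the probes that carry the comparison are shown, copied from the scanner files and written 5′ to 3′. The Ywhaq and Ywhab probes named first cover the same stretch of the coding sequence that these genes share. Capitals mark the bases at which those 2 probes are identical when laid over each other without gaps, and the other 2 probes are printed in lower case.
Ywhaq A_55_P2178349: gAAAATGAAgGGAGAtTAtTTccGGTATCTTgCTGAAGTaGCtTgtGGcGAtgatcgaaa
Ywhab A_51_P242027: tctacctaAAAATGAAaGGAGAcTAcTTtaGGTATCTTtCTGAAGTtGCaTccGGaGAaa
Ywhaq A_55_P2740271: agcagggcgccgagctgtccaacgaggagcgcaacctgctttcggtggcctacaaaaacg
Ywhaz A_55_P1987245: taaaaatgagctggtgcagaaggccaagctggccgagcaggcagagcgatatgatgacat

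The overlap of the first pair was 53 bases, of which 39 matched (73.6%), more than in any other pair of the 13 probes. On the mouse build mm9 the files place these probes, in the order shown, at chr12:21404104-21404163 (minus strand), chr2:163839797-163839856 (plus strand), chr12:21422802-21422861 (minus strand) and chr15:36720668-36720727 (minus strand). Of all other probes on the array, 1 shared a run of 15 bases with a 14-3-3 probe, namely an Ankrd44 probe with A_55_P2178349, and it was too dim to be tested.

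Values are log2 of a spot's processed intensity minus the 75th percentile of its array, so 0 is the 75th percentile and 1 unit is a doubling. Between 45.9% and 52.1% of spots on an array were well above background and no spot was saturated. Of the 13 probes, 12 were well above background on all 4 arrays and entered the limma fit of 26015 probes. The number of arrays limits the precision. All 8 fibroblast markers listed (among them Col1a1, Vim and Pdgfrb) were well above background on every array. Their summed linear level, carried mostly by the brightest probes, was 2093 and 2101 with siTIMP1, against 2104 and 1987 with siControl. Single log2 fold changes ran from -0.03 (S100a4) to 0.40 (Col3a1, without overlap of the groups). The other Col3a1 probes had 0.28 and 1.28. The targeted gene Timp1 had processed signals of 1840 and 1492 with siTIMP1, against 53297 and 67559 with siControl, which leaves 2.68% of the control level. All 4 arrays shared 1 slide, and position on it cannot be told apart from the group.

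Ywhaq, the theta isoform, was lower with siTIMP1 on each of its 4 measured probes, at 43.6% to 57.1% of the siControl level. Its brightest probe, A_55_P2178349, had processed signals of 2169 and 2209 with siTIMP1, against 4993 and 4754 with siControl. On the normalised log2 scale these were 3.51 and 3.54 with siTIMP1, against 4.74 and 4.71 with siControl. The arrays of a group lay within 0.04 of each other on this probe and the groups did not overlap. The log2 fold change was -1.20 (SE 0.0573), with group means of 3.53 ± 0.02 for siTIMP1 and 4.73 ± 0.03 for siControl (SD, n = 2 each).

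The second coding probe shown, A_55_P2740271, lies about 19 kilobases upstream on the genome and is dimmer. Its normalised values were 0.06 and 0.06 with siTIMP1, against 1.12 and 1.15 with siControl. The log2 fold change was -1.07 (SE 0.0846), and again the arrays within a group nearly coincided.

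A_55_P2740439 starts at base 1392 of its transcript, at chr12:21396848-21396907 (mm9, minus strand). It had 2.83 and 2.96 with siTIMP1, against 3.76 and 4.11 with siControl, a log2 fold change of -1.04 (SE 0.130). The siControl arrays differed by 0.34 here, the widest within-group gap of the 4 measured Ywhaq probes, and the groups still did not overlap.

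A_55_P2507916 had 1.26 and 1.32 with siTIMP1, against 2.04 and 2.16 with siControl, a log2 fold change of -0.81 (SE 0.0851). This was the smallest difference among the 4 measured Ywhaq probes. The files assign this probe to Ywhaq, but they place only 45 bases of its 60 at chr12:21396190-21396234 (mm9). Its accession list also holds a transcript that the RefSeq gene table (GRCm38.p6) names Gm7977, a transcribed pseudogene. Signal from that transcript cannot be told apart from Ywhaq on this probe, and no probe on the array is named Gm7977.

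The fifth Ywhaq probe, A_52_P215249, reads an unclassified cDNA clone at chr12:21403696-21403755 (mm9, minus strand). It was not well above background on any array, with processed signals of 1.97 and 3.34 with siTIMP1 and 1.97 and 1.80 with siControl, so it gives no fold change.

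A further probe, A_66_P123478, carries an Ensembl transcript number in place of a gene name and therefore falls outside the members, while its description names the theta polypeptide. It lies at chr12:21395943-21396002 (mm9, minus strand). Its normalised values were 1.28 and 1.26 with siTIMP1, against 2.25 and 2.36 with siControl, a log2 fold change of -1.03 (SE 0.081). It was singled out after its values were seen, and it reads the same gene as the members in the same samples.

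**Figure D1:**
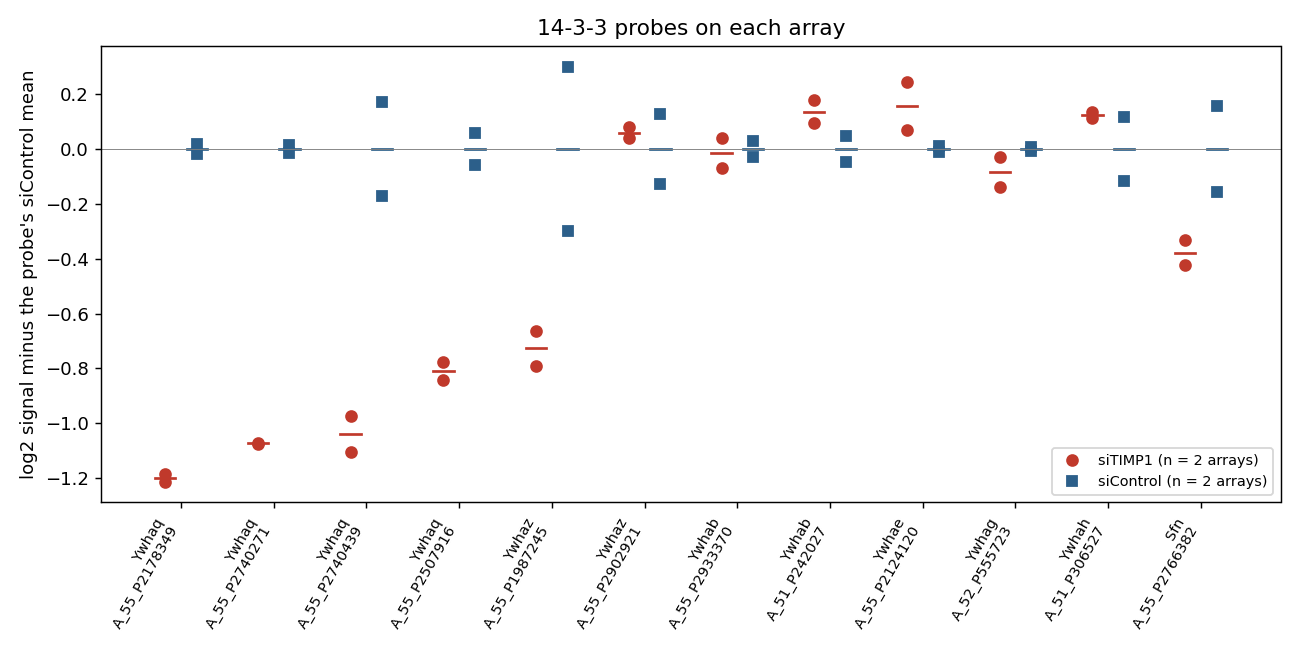
Normalised log2 signal of the 12 measured 14-3-3 probes on each array, minus the mean of the siControl arrays for that probe. Red circles are siTIMP1 and blue squares siControl (2 arrays each), and short lines are group means. The 4 Ywhaq probes lie well below their siControl values. The Ywhaz probe A_55_P1987245 is also lower, but its siControl arrays lie 0.60 apart, further than the gap between the groups' nearest arrays.

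Ywhaz, the zeta isoform, gave different values on its 2 probes. The probe shown above, A_55_P1987245, had 1.51 and 1.64 with siTIMP1, against 2.60 and 2.00 with siControl. The groups did not overlap, yet the siControl arrays were 0.60 apart, nearly as far as the group means. The log2 fold change was -0.73 (SE 0.206, 95% interval -1.25 to -0.20). The value became -0.43 with siControl replicate 1 left out and -1.03 with siControl replicate 2 left out, so the size of this difference rests on which siControl array is used.

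The other Ywhaz probe, A_55_P2902921, lies at chr15:36701740-36701799 (mm9, minus strand) and starts at base 1376 of its transcript. It had 5.09 and 5.05 with siTIMP1, against 4.88 and 5.14 with siControl. The groups overlapped, and the log2 fold change was 0.06 (SE 0.095, 95% interval -0.18 to 0.30). It was -0.07 without siControl replicate 1 and -0.005 with quantile normalization. The intervals of the 2 Ywhaz probes missed each other narrowly, the lower ending at -0.20 and the higher starting at -0.18. No single value is given for the gene, and the difference between the probes was not tested.

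Ywhab, the beta isoform, is the member whose probe most resembles the brightest Ywhaq probe. That Ywhab probe, A_51_P242027, had 1.83 and 1.75 with siTIMP1, against 1.70 and 1.61 with siControl. It was slightly higher with siTIMP1, without overlap, with a log2 fold change of 0.14 (SE 0.0837, 95% interval -0.08 to 0.35). With 1 array left out it lay between 0.09 and 0.18. The interval spans both signs, so no direction is settled for this Ywhab probe, beside -1.20 on the Ywhaq probe of the same stretch.

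The second Ywhab probe, A_55_P2933370 at chr2:163844231-163844290 (mm9, plus strand), had 4.20 and 4.31 with siTIMP1, against 4.30 and 4.24 with siControl. The groups overlapped and the log2 fold change was -0.015 (SE 0.0675, 95% interval -0.19 to 0.16). Its sign changed under 3 of 13 alternative settings, and it stayed between -0.07 and 0.04.

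Ywhae, the epsilon isoform, had 6.10 and 6.27 with siTIMP1, against 6.04 and 6.02 with siControl, on its 1 probe at chr11:75578990-75579049 (mm9, plus strand). The values were higher with siTIMP1 without overlap, but the siTIMP1 arrays lay further apart than the groups' nearest values. The log2 fold change was 0.16 (SE 0.0708, 95% interval -0.02 to 0.34), the highest among the 12 probes. It was 0.24 without siTIMP1 replicate 1, 0.07 without siTIMP1 replicate 2 and 0.08 with quantile normalization.

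Ywhag, the gamma isoform, had 4.12 and 4.23 with siTIMP1, against 4.26 and 4.25 with siControl, on its 1 probe at chr5:136384599-136384658 (mm9, minus strand). Values were lower with siTIMP1 by a margin of about 0.02 between the nearest arrays. The log2 fold change was -0.08 (SE 0.0648, 95% interval -0.25 to 0.08), and it lay between -0.14 and -0.03 with 1 array left out.

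Ywhah, the eta isoform, had 5.79 and 5.77 with siTIMP1, against 5.54 and 5.77 with siControl, on its 1 probe at chr5:33370505-33370564 (mm9, plus strand). One siControl array matched the siTIMP1 arrays, so the groups overlapped. The log2 fold change was 0.12 (SE 0.0859, 95% interval -0.10 to 0.34). Leaving out siControl replicate 1 gave 0.0099, leaving out siControl replicate 2 gave 0.24, and quantile normalization gave 0.05.

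Sfn, the sigma isoform, had processed signals of 68.1 and 63.9 with siTIMP1, against 75.4 and 91.5 with siControl, all well above background. On the normalised scale it had -1.48 and -1.57 with siTIMP1, against -1.30 and -0.99 with siControl, on its 1 probe at chr4:133156484-133156543 (mm9, minus strand). The groups did not overlap, the siControl arrays were 0.31 apart, and the log2 fold change was -0.38 (SE 0.155, 95% interval -0.77 to 0.02). It was -0.20 with normexp background correction and -0.22 without siControl replicate 2. Of 8 epithelial markers, Krt14, Krt8 and Trp63 were well above background on all arrays and Krt18 on 1, while Krt5, Cdh1, Epcam and Dsp were so on none. The summed linear level of the 3 measured epithelial markers was 3.18 and 3.62 with siTIMP1, against 4.01 and 3.89 with siControl, most of it from Trp63. The markers had no common direction, with log2 fold changes of -0.26 for Trp63, without overlap of the groups, and of -0.19 for Krt14 and 0.55 for Krt8, both with overlap. Their part in the Sfn value was not tested.

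Read together, 8 of the 12 measured probes were lower and 4 higher with siTIMP1. The groups did not overlap on 9 of the 12, 7 of them lower, beside 53% of all tested probes, with 23.2% lower and 29.8% higher. Both counts include the 4 Ywhaq probes, all lower without overlap. Among the 8 probes of the other members, the groups did not overlap on 5. In the limma fit, 3 of the 12 passed an adjusted p of 0.05, all lower and all from Ywhaq, beside 0.688% of all tested probes in either direction, 0.627% lower and 0.0615% higher. Since Ywhaq chose the family, nothing is read from these counts over the 12 probes. No 14-3-3 probe passed with either siTIMP1 array left out or without a mean-variance trend, where limma called 0 genes on the whole array although 2692 to 4216 probes reached an unadjusted p under 0.05. The median log2 fold change was -1.06 over the 4 Ywhaq probes, 0.02 over the 8 probes of the other members and 0.02 over all tested probes. Of those 8, none passed and 1, the first Ywhaz probe, had an unadjusted p under 0.05, beside 18.4% of all tested probes, 7.7% lower and 10.6% higher. Among all tested probes, 390 had a lower value than the brightest Ywhaq probe and 955 a lower value than A_55_P2507916, which places them at the lowest 1.5% and 3.68% of values.

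**Figure D2:**
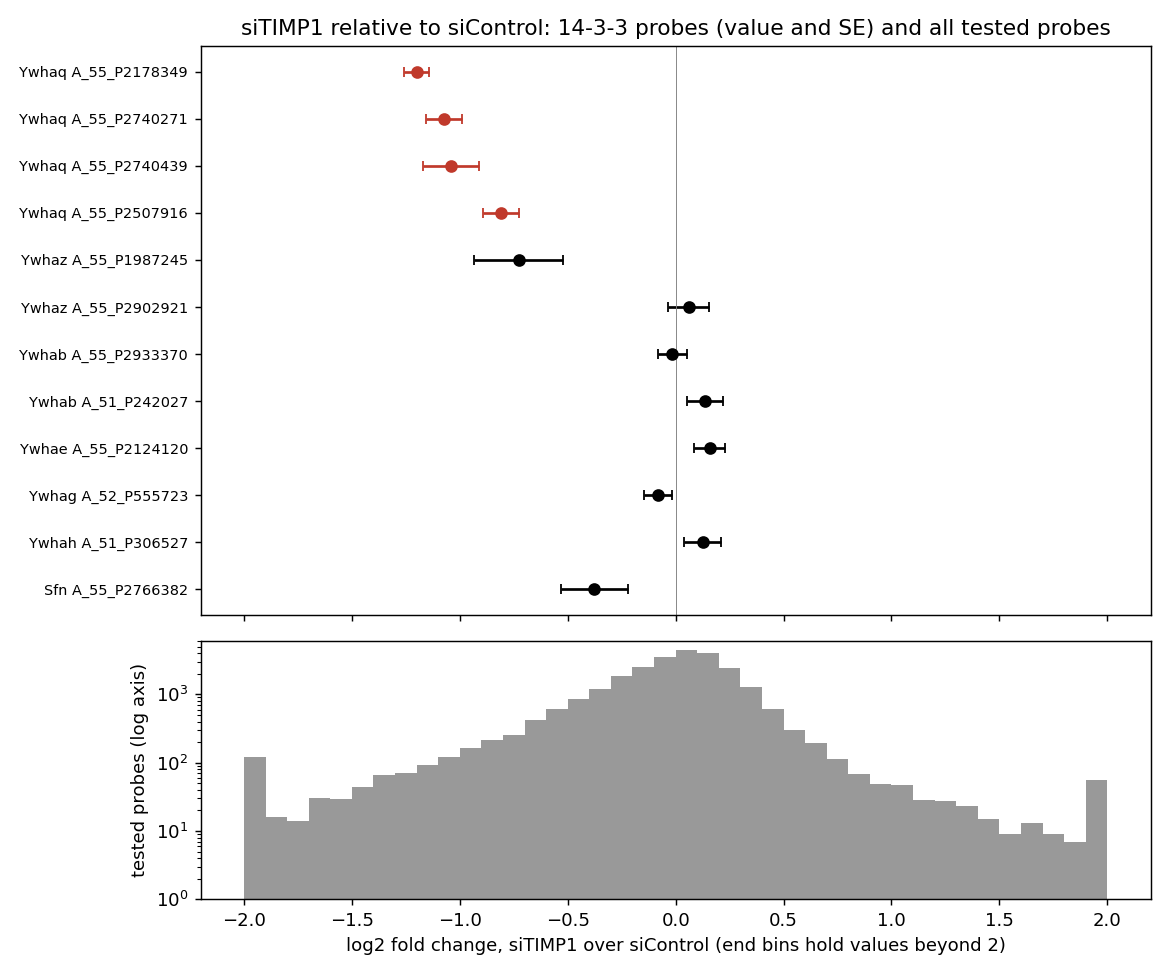
Log2 fold change of siTIMP1 over siControl for the 12 measured 14-3-3 probes (upper panel, value with its SE, Ywhaq in red) above the distribution of all 26015 tested probes (lower panel, number of probes on a log axis). The Ywhaq probes lie from -1.20 to -0.81, in the lower tail of the distribution, and 7 of the other 8 probes lie between -0.38 and 0.16.

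Isoforms of this family can pair with one another, so a lower level of one is of interest beside the levels of the rest. Of the 6 other genes, only Ywhaz and Sfn had a probe with a log2 fold change beyond 0.2 in either direction. No 14-3-3 probe had a value above 0.16. Levels of different probes cannot be compared on these arrays, so the share of the family's total message that Ywhaq makes up was not computed.

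Genes whose values over the 4 arrays lay closest to those of the brightest Ywhaq probe were looked for among 11695 genes with a symbol that were well above background on every array. Likeness was the root mean square difference of the centred log2 values over 4 arrays. Dcbld1, which encodes a membrane protein, was nearest at 0.044. It had -0.59 and -0.61 with siTIMP1, against 0.68 and 0.68 with siControl. Next came Asb4, a gene of the ankyrin repeat and SOCS box family, at 0.052 (log2 fold change -1.30) and Mtmr10, a myotubularin-related gene, at 0.054 (-1.25). Pcbp3, a poly(C)-binding protein gene, followed at 0.057 (-1.09), and B3galnt2, a glycosyltransferase gene, at 0.064 (-1.24). With 4 arrays, such likeness picks genes that are lower by about as much with little spread within each group.

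What 14-3-3 proteins do depends on the clients they bind and on the kinases that phosphorylate the docking sites. A list of 59 such genes in 7 roles was compared between siTIMP1 and siControl, of which 56 were measured (Rgs14, Foxo4 and Rps6ka1 were too dim). None passed an adjusted p of 0.05 in limma in either direction, beside 0.784% of 17734 genes, 0.699% lower and 0.0846% higher. At an unadjusted p under 0.05 there were 18 (32.1%), 13 higher and 5 lower, beside 19.8% of all genes, 11.8% higher and 7.98% lower. The median log2 fold change was 0.07, beside 0.02 over all genes. Of the 56 genes, 54 were well above background on all 4 arrays, with values between -0.42 and 0.52, while Map3k5 and Ssh1 entered the fit through siControl alone. These values are each gene's brightest tested probe.

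Among clients that act in transcription and RNA control, 14 were measured, with a median of 0.07. Wwtr1, which encodes the Hippo pathway coactivator TAZ, had 4.83 and 4.85 with siTIMP1, against 5.14 and 5.20 with siControl. Its log2 fold change of -0.33 (SE 0.054, limma adjusted p = 0.0883) had the smallest p of the list. With 1 array left out, the Wwtr1 value lay between -0.36 and -0.30. Hdac4, a histone deacetylase that 14-3-3 proteins hold in the cytoplasm, had 0.28, with 0.11 and 0.16 on its other tested probes. Zfp36, a factor in mRNA decay, had 0.28. Yap1, the relative of Wwtr1, had 0.02 and was named after its value was seen.

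Kinases that write docking sites had a median of 0.08 over 13 measured genes. Lats2, a Hippo kinase that phosphorylates YAP and TAZ, had 1.10 and 1.06 with siTIMP1, against 0.46 and 0.67 with siControl. Its log2 fold change was 0.52 (SE 0.107, limma adjusted p = 0.124). On further Lats2 probes the values were 0.41 and 0.61. Mark2, a polarity kinase, had 0.27, without overlap of the groups.

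The RAF kinases are classical clients, kept inactive or active by 14-3-3 binding at different sites. Braf had -0.39 (limma adjusted p = 0.172), but its other tested probes had -0.35, 0.15 and 1.26, and the mean of its probes was 0.17. Araf, a close relative of Braf, had 0.24, and 0.12 on its other probe. The role had no common direction, with 3 of 4 measured genes above 0.

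In the cell cycle role the median was 0.10 over 7 genes. Cdc25b, a phosphatase that drives entry into mitosis and is held back by 14-3-3 proteins, had -0.17 and -0.16 with siTIMP1, against -0.42 and -0.75 with siControl, a log2 fold change of 0.42 (SE 0.140, limma adjusted p = 0.224). The other Cdc25b probe had 0.80. Cdkn1b, the inhibitor p27, had 0.33 and Cdc25a 0.10. The Cdkn1b value ran from 0.16 to 0.49 with 1 array left out, and both ends came from leaving out a siControl array.

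The remaining roles gave no call either. Bad, the cell death protein that 14-3-3 proteins sequester, had 0.21 and Abl1 had -0.18. Map3k5, the stress kinase ASK1, was not well above background on either siTIMP1 array, with processed signals of 7.64 and 7.10 with siTIMP1, against 9.74 and 14.7 with siControl. Its measured log2 difference of -0.74 (limma adjusted p = 0.354) was -0.13 with normexp background correction and -0.43 without siControl replicate 2. With the siTIMP1 values raised to the lowest signal well above background on those arrays, the siControl mean was 1.21-fold higher. The siControl arrays lay further apart than that, so no least difference can be given. In growth and metabolism, Tbc1d4, a Rab regulator in insulin signalling, had -0.42 with its other probes at -0.57 and -0.48, whereas Irs1 had 0.31 and Ulk1, the autophagy kinase, -0.25. Of the cytoskeletal clients, Ndel1 had -0.27 (limma adjusted p = 0.119) and 0.08 on its other probe. Rnd3 had -0.18 and 0.09 on its 2 probes, and the first of these became 0.10 when siControl replicate 1 was left out and -0.47 when siControl replicate 2 was. Ppp1r12a had -0.03 and 0.07.

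**Figure D3:**
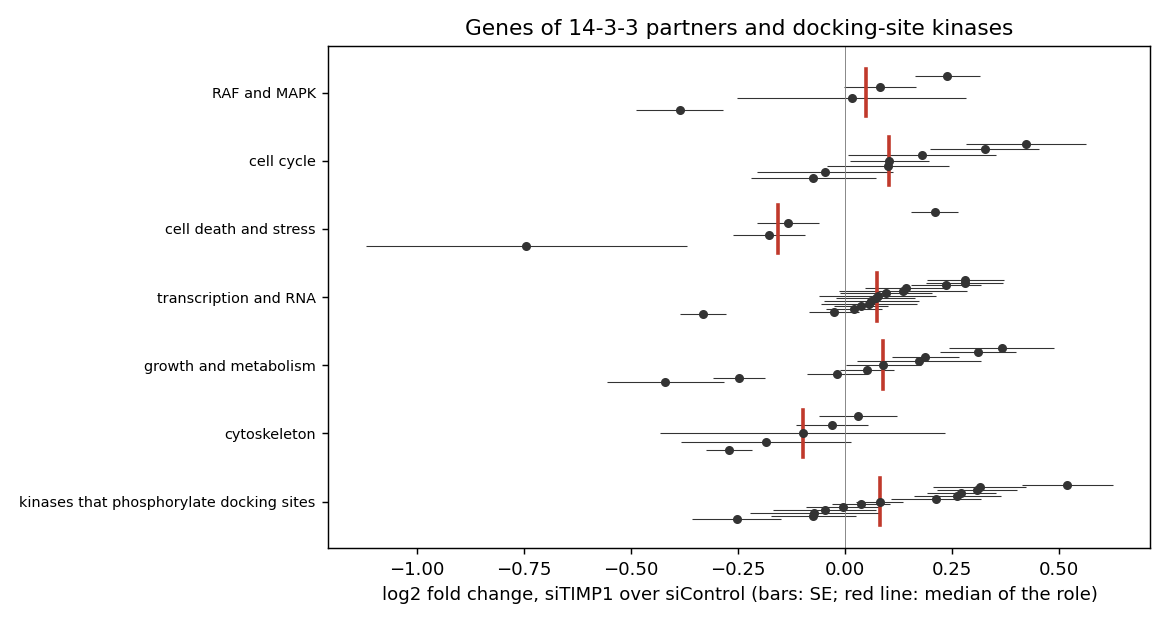
Log2 fold change of siTIMP1 over siControl for the 56 measured genes of 14-3-3 clients and of kinases that phosphorylate their docking sites, by role. Points are genes with their SE and red lines are medians of a role, which run from -0.16 (cell death and stress) to 0.10 (cell cycle). The lowest point is Map3k5, which was not well above background with siTIMP1 and counts in the median of cell death and stress.

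The Ywhaq difference was also followed through the processing. Over the 13 alternatives that use the brightest probe, its log2 fold change lay between -1.24 and -1.17, and the mean of the 4 Ywhaq probes was -1.03. Each of the 4 probes kept its sign under these alternatives, with values from -1.24 to -0.70. Filters, variance models and kept outlier spots could not change these fold changes, because they leave the values of these probes as they are. Leaving out an array cannot change the sign of a probe whose groups do not overlap. The kept sign is therefore no test of the Ywhaq value. Normexp background correction gave the smallest values for 3 of the 4 probes, -1.17, -0.90 and -0.70. The last of these, A_55_P2507916, did not pass the threshold there (limma adjusted p = 0.0629).

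**Figure D4:**
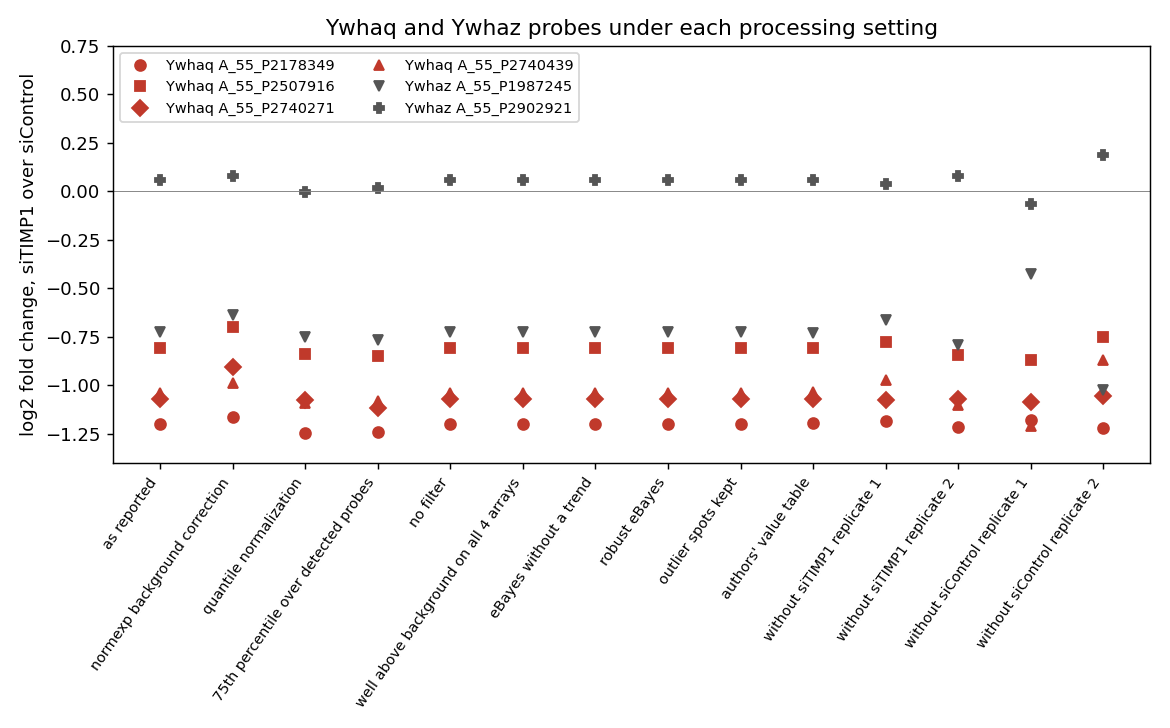
Log2 fold change of siTIMP1 over siControl for the 4 measured Ywhaq probes (red) and the 2 Ywhaz probes (grey) as reported and under each processing setting that treats probes singly. The Ywhaq probes stay between -1.24 and -0.70, while the Ywhaz probe A_55_P1987245 moves between -1.03 and -0.43 with the siControl array left out.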

How the data were processed

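RNA of 4 NIH3T3 samples was labelled with Cy3 and read on 1-colour Agilent arrays. The authors deposited the scanner's spot intensity tables. The submitters' processing notes name Agilent Feature Extraction 11.5.1.1. Background was subtracted from the processed intensity, which was also detrended within each array, per the file headers. The authors' value table was deposited as log2 values. Each of its columns equalled the log2 processed signal minus 1 constant, from 6.90 to 6.96, so no scale or direction stays unknown. Probe coordinates are on mm9, per the file headers.

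From these, log2 processed signals minus each array's 75th percentile were computed, without control spots and outlier spots. Each member probe has 1 spot. Tests covered probes well above background on every array of siTIMP1 or of siControl. The comparison used limma 3.58.1 (lmFit, eBayes with a mean-variance trend) under R 4.3.3 and Benjamini-Hochberg adjustment over 26015 probes, at a threshold of 0.05. Adjusted p-values come from this fit unless another setting is named beside them. A gene is its tested probe with the highest mean. RefSeq accessions of 32994 probes matched the reference table, which updated 1535 symbols. Members and lists were chosen with earlier results of these data known. Named genes are the members, Timp1, called partners and up to 3 partners per role of smallest p, and 5 genes most like Ywhaq. Some partners are not reported here by name. The fit was tested on simulated data. Alternatives were normexp (offset 50), quantile and detected-probe scaling, other filters and variance models, outlier spots, the mean of probes, the authors' table and leaving out arrays. Figures used matplotlib 3.10.9. Other cell type markers: 3 of 5 macrophage markers (Ptprc, Cd68 and Csf1r) were well above background on all arrays and 0 to 1 of 4 endothelial markers on each array.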

Additional observations from a re-analysis of the deposited data

How the results depend on the processing

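The Ywhaq log2 fold change of -1.20 was -1.17 with normexp background correction, -1.24 with quantile normalization, -1.24 with the 75th percentile over detected probes and -1.03 with the mean of its probes. It lay between -1.22 and -1.18 when 1 array was left out. Without a mean-variance trend it stayed at -1.20 but did not pass the threshold (limma adjusted p = 0.133). Timp1 kept its direction, at -5.22 without a mean-variance trend (limma adjusted p = 0.133) and between -5.41 and -5.04 when 1 array was left out. Genes called higher, 15 as reported, numbered 107 with no filter, 53 with robust eBayes and 0 without a trend. Genes called lower, 124 as reported, numbered 258 with no filter, 0 without a trend and 72 when a gene's probes were averaged. With 1 array left out these counts ran from 0 to 408 (higher) and from 0 to 642 (lower), and limma called 0 genes without either siTIMP1 array, where an unadjusted p under 0.05 was reached by 2920 and 2692 probes. That number was 4216 without a trend. No partner gene was called higher or lower under an alternative that kept all 4 arrays. Without siControl replicate 1, where the counts over all genes were largest, Cdkn1b had 0.49 and Wwtr1 -0.36. For all of these the cause was not tested. Of 160 values of single member probes under alternatives, 154 moved by less than the spread between arrays and 6, all of Ywhaq, by more. Filters, variance models and kept outlier spots could not change these values, so the 154 is no measure of stability. The Ywhaz probe A_55_P1987245, whose siControl arrays lay 0.60 apart, counts among the 154. It had -0.43 without siControl replicate 1 and -1.03 without siControl replicate 2. With no filter the median log2 fold change of all probes was 0.15, against 0.02 as reported. All arrays shared 1 slide, so no slide term was fitted. No paired analysis was possible because replicate numbers are absent from the labels. Signal near background limits the dim Ywhaq probe A_52_P215249 and Map3k5.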
